A study of Mus musculus with 20 samples.

Results

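The livers of PXR-deficient mice (PXRKO) were compared with those of CAR-deficient mice (CARKO) for their response to TCPOBOP. The 10 arrays with these genotypes in their titles, 4 PXRKO and 6 CARKO, were taken from the 20 arrays of the series, which also held 4 arrays of mice deficient in both receptors (CARPXRKO) and 6 of wild type mice (WT). All animals were male C57BL/6J mice of 9 to 12 weeks, per the labels. On each array the Cy5 channel held the RNA of 1 liver, taken 12 h after an intraperitoneal dose of 10 mg/kg TCPOBOP. The Cy3 channel held a pool of 6 livers of the same genotype from mice given the vehicle, 5% DMSO in corn oil. Each genotype had 1 such pool, and how the receptor alleles were made is not given in the sources used here. A response is the log2 ratio of the treated liver over the pool, and the difference between genotypes is the mean PXRKO response minus the mean CARKO response.

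TCPOBOP is a synthetic compound that activates the constitutive androstane receptor (CAR) of the mouse. CAR and the pregnane X receptor (PXR) are nuclear receptors of the liver that pair with the retinoid X receptor on DNA and control overlapping sets of genes for the uptake, oxidation, conjugation and export of drugs, and both also act on bile acid, cholesterol and energy metabolism. A PXR-deficient liver can respond through CAR, and a CAR-deficient liver has PXR but lacks the receptor that TCPOBOP is best known to bind.

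The Sterolgene V1 array carried 120 mouse probes at 3 spots each, and the 82 measured on 3 or more arrays in each genotype were tested. Of the 38 others, 28 had fewer than 3 values in PXRKO, 6 of these in CARKO as well, and 10 fell short in WT or CARPXRKO alone. Nothing in the files links a probe identifier to a gene, so probes are given by identifier. The transcripts of CAR and PXR and the markers of liver cell types were not analysed here for the same reason, and the genotype and tissue labels were therefore not checked against them. In bulk liver RNA, a change in the number of cells of a type and a change in RNA per cell cannot be told apart. The labels number the replicates without saying how the livers were processed together or apart, so the p-values measure only the spread between these arrays, which may be technical. They leave out the spread between vehicle animals, since each pool is a single control sample. No array had its dyes exchanged, and a probe's dye bias therefore enters each response.

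Between 50 and 69 probes lay well above background in Cy3 on PXRKO arrays, and between 65 and 94 on CARKO arrays. The Cy3 readings of a genotype repeat a single pool, so the arrays are no independent replicates of this difference. The exact two-sided permutation p over arrays, 0.019, therefore says nothing about vehicle animals. In Cy5 the numbers were 60 to 92 in PXRKO and 75 to 100 in CARKO (exact two-sided permutation p = 0.32). Mouse spots had a median Cy5 signal of 403 to 987 intensity units in PXRKO and 226 to 907 in CARKO, over local backgrounds of 55 to 97 in PXRKO and 45.5 to 91.5 in CARKO. Flagged spots in the deposited tables numbered 131 to 222 of 578 per array in PXRKO and 0 to 210 in CARKO. The share of these differences in the results below was not tested.

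Some arrays stood apart from the others of their genotype. PXRKO 2 correlated with PXRKO 1, 3 and 4 at 0.58, 0.60 and 0.58 across probes, but at −0.05, −0.05 and −0.02 once Mm038 and Mm039 were left out. It held the highest or lowest PXRKO value for 59 of 73 probes with 4 values, against 26 to 34 for the other PXRKO arrays. CARKO 5 was the extreme array for 54 of 77 probes, against 7 to 41 for the other CARKO arrays. It correlated with the other CARKO arrays at −0.08 to 0.24. Low correlations were not particular to it, with −0.08 to 0.25 for CARKO 2 and 0.0021 to 0.42 for CARKO 1. CARKO 3, 4 and 6 correlated with each other at 0.72 to 0.88. Across the genotypes, CARKO 5 ran opposite to PXRKO 1, 3 and 4, with correlations of −0.58, −0.42 and −0.40, and alongside PXRKO 2, with one of 0.53. The dye labels give the same orientation for all arrays, so the direction of each array was kept. Why PXRKO 2 and CARKO 5 stood apart was not tested. For CARKO 3 the treatment text describes the vehicle pool where the treated liver should stand, while its source name and dye label say treated liver. The counts of probes and the results that these arrays move are given below with and without them.

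The responses of PXRKO and CARKO livers differed for 9 of 82 probes, 11.0% of those tested (limma, Benjamini-Hochberg adjusted p under 0.05). Of these, 7 (8.54%) were higher in PXRKO than in CARKO and 2 (2.44%) were lower. At an unadjusted p under 0.05 the number was 28. Over all 82 probes the median difference was 0.0091 on the log2 scale, the quartiles were −0.24 and 0.21, and 41 probes lay above 0 and 41 below. The 7 to 2 split moved to 9 to 5 with median centring, to 4 to 0 with scale normalization and to 5 to 0 with centring on the calibration control spots, which shifted the median difference to 0.14. On the plot of ranked differences, 6 of the 7 higher probes lie apart at the upper end, while Mm071 lies among probes that did not pass.

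**Figure D1:**
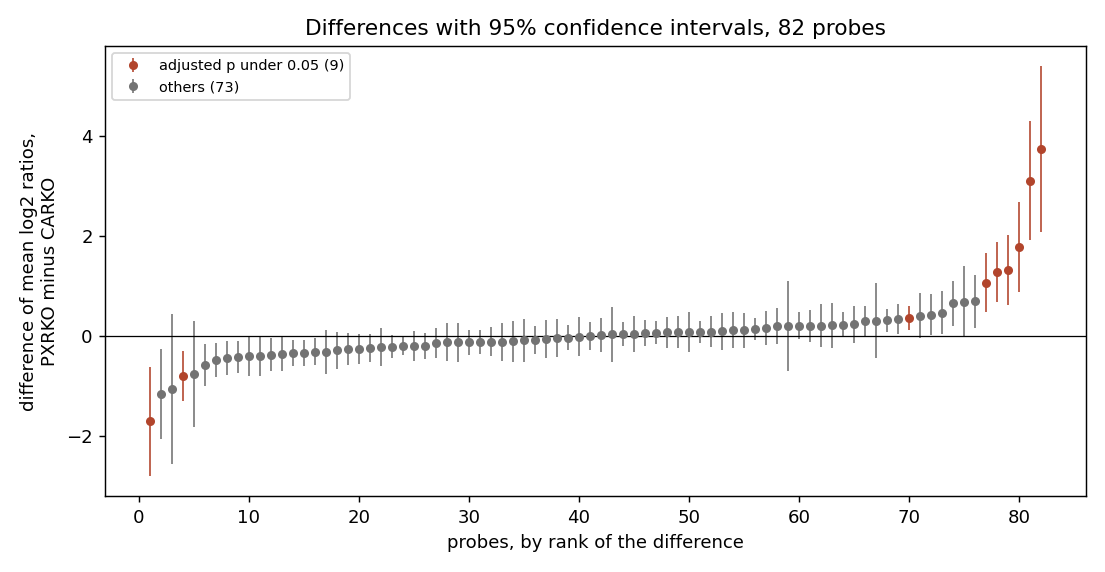
Difference of mean log2 ratios (PXRKO minus CARKO) on the y axis for the 82 tested probes ordered by rank on the x axis, with 95% confidence intervals; red points are the 9 probes with an adjusted p under 0.05 and grey points the other 73. The differences run from −1.71 to 3.73, and the 6 highest are all red.

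The response of each genotype was also tested against 0. In PXRKO, 15 of 82 probes passed the threshold (18.3%), of which 10 rose (12.2%) and 5 fell (6.10%). In CARKO, 4 passed (4.88%), of which 3 rose (3.66%) and 1 fell (1.22%). At an unadjusted p under 0.05 the numbers were 30 in PXRKO and 13 in CARKO. These counts come from groups of unequal size and were not compared by a test. The median absolute log2 ratio over probes, which measures the size of the ratios on an array whatever their source, was 0.26 ± 0.028 in PXRKO and 0.17 ± 0.091 in CARKO (mean ± SD, n = 4 and 6), a difference that missed the threshold (exact two-sided permutation p = 0.095). The highest value of the 10 PXRKO and CARKO arrays, 0.31, belonged to CARKO 5. On CARPXRKO arrays, with neither receptor, the measure ran from 0.19 to 0.29, and on WT arrays from 0.20 to 0.29. It is therefore not read as a size of the response to TCPOBOP. Centring on the calibration spots shifted the median of all probes to 0.46 in PXRKO and 0.30 in CARKO. The splits of rises and falls were then 11 to 0 in PXRKO and 0 to 0 in CARKO, where 12 probes had an unadjusted p under 0.05. With only the 10 PXRKO and CARKO arrays fitted, 10 probes passed in PXRKO, 9 rises and 1 fall. Most of the 5 falls thus depended on the spread taken from the WT and CARPXRKO arrays. Without PXRKO 2, 27 probes passed in PXRKO and the split was 14 to 13. It was 17 to 17 without both PXRKO 2 and CARKO 5, and 16 to 17 with limma's array weights, both chosen after the arrays had been seen. Without PXRKO 1, 3 or 4 the PXRKO responses numbered 6, 6 and 7. Without CARKO 3 the CARKO responses numbered 2, both rises. In CARKO the split was 5 to 5 with scale normalization and 2 to 0 with median centring.

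Of the 9 probes whose responses differed, 8 passed the threshold in PXRKO against its own pool, all but Mm071, and 0 passed in CARKO. Over all 82 probes the shares that passed were 18.3% in PXRKO and 4.88% in CARKO. Seen from the responses, 8 of the 15 PXRKO responders and 0 of the 4 CARKO responders differed between the genotypes. Over all 82 probes that share was 11.0%, and with only 4 responders a count of 0 lies near it. The response and the difference share arrays, so these counts are not independent of each other. On the plot of mean responses, the 6 probes with the largest positive differences have PXRKO means of 0.98 to 4.08. Their CARKO means run from −0.80 for Mm052, whose PXRKO mean is 0.98, to 0.40 for Mm039. Across the 82 probes the mean responses of PXRKO and CARKO were correlated at 0.10 by Pearson's and 0.0051 by Spearman's coefficient, and Pearson's was −0.17 without Mm038 and Mm039. The probes share arrays and pools and are not independent replicates.

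**Figure D2:**
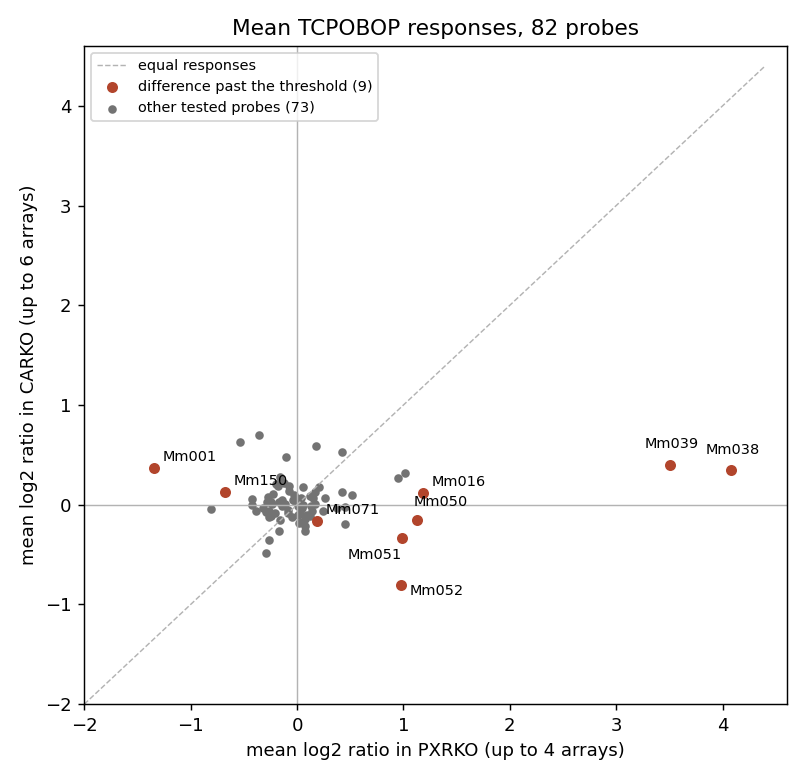
Mean log2 ratio of treated liver over vehicle pool in PXRKO (x axis) and CARKO (y axis) for the 82 tested probes; red points are the 9 probes whose difference passed the threshold, grey points the other 73, and the dashed line marks equal responses. Mm038 and Mm039 lie far to the right at PXRKO means of 4.08 and 3.50, with CARKO means of 0.35 and 0.40.

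The largest differences were those of Mm038 and Mm039. Mm038 showed log2 ratios of 3.71, 5.10, 3.57 and 3.94 on PXRKO 1 to 4, against 1.62, 0.30, −0.31 and −0.21 on CARKO 1 to 4. Every PXRKO array lay above every CARKO array with a value, and CARKO 5 and 6 had no unflagged spot of this probe. The signals behind the ratios differed in the same way. In Cy5, the treated liver, Mm038 reached 8054, 9086, 17740 and 4595 intensity units above background in PXRKO and 343, 120, 66.7 and 39.3 in CARKO. In Cy3, the pool, it had 220, 200, 217 and 116 units in PXRKO and 58.3, 71.7, 107 and 69.7 in CARKO. The treated channel was thus bright on all 4 PXRKO arrays, while the pool was never well above background over the 10 arrays. The mean log2 ratio in PXRKO was 4.08 ± 0.70 (n = 4, limma adjusted p = 4.65e-05). With the pool raised to the dimmest probe well above background, treated PXRKO livers read on average 15.5-fold above the PXRKO pool in Mm038. That level is not a detection limit, so 15.5-fold is no strict lower bound, and it is open to dye bias. In CARKO the treated channel was well above background on 1 of 6 arrays and no fold is given (log2 ratio 0.35 ± 0.89, n = 4). The difference between the genotypes was 3.73 ± 0.79 (SE, 95% interval 2.07 to 5.39, limma adjusted p = 0.0076), a value from ratios with a dim pool rather than a measured fold.

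Mm039 followed the same pattern. Its log2 ratios were 3.18, 4.20, 3.07 and 3.56 on PXRKO 1 to 4, against 1.43, 0.16, −0.06 and 0.08 on CARKO 1 to 4. The groups did not overlap, and CARKO 5 and 6 again gave no value. Its Cy5 signal was 6556, 7204, 14136 and 4409 units in PXRKO and 403, 140, 63.7 and 102 in CARKO. The Cy3 signal was 280, 359, 260 and 175 units in PXRKO and 93.0, 102, 75.3 and 107 in CARKO, well above background only on PXRKO 2. Mm039 rose in PXRKO by a mean log2 ratio of 3.50 ± 0.51 (n = 4, limma adjusted p = 7.81e-06) and had 0.40 ± 0.69 in CARKO (n = 4, limma adjusted p = 0.66). The difference was 3.10 ± 0.56 (SE, 95% interval 1.91 to 4.29, limma adjusted p = 0.0032). Since the pool was measured above background on a single array, the ratio in PXRKO is no measured fold.

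For both probes CARKO 1 was the highest CARKO array, and it was also the only CARKO array with a Cy5 signal of Mm038 well above background. Without CARKO 1 the differences were 4.15 for Mm038 and 3.44 for Mm039 (limma adjusted p = 0.0052 and 0.0019), so they were as large without this array. Without PXRKO 2, the highest PXRKO array for both, they were 3.39 and 2.87 (limma adjusted p = 0.0089 and 0.0032). With 4 arrays a side, the exact two-sided permutation test gave p = 0.0286 for each, the smallest value that 70 assignments allow. Scale normalization between arrays lowered the differences to 2.88 and 2.35 and ended both calls (limma adjusted p = 0.062 and 0.054). In the other genotypes, Mm038 had mean log2 ratios of −0.99 ± 1.47 in CARPXRKO (n = 4) and 4.74 ± 1.47 in WT (n = 6). Mm039 had −0.085 ± 0.054 in CARPXRKO and 4.19 ± 1.30 in WT. These levels were not tested against PXRKO or CARKO here, and the low CARPXRKO mean of Mm038 rests on CARPXRKO 4, at −3.15 from 1 unflagged spot. On most WT and CARPXRKO arrays the pool signal of both probes was not well above background, so these ratios are no measured folds either.

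**Figure D3:**
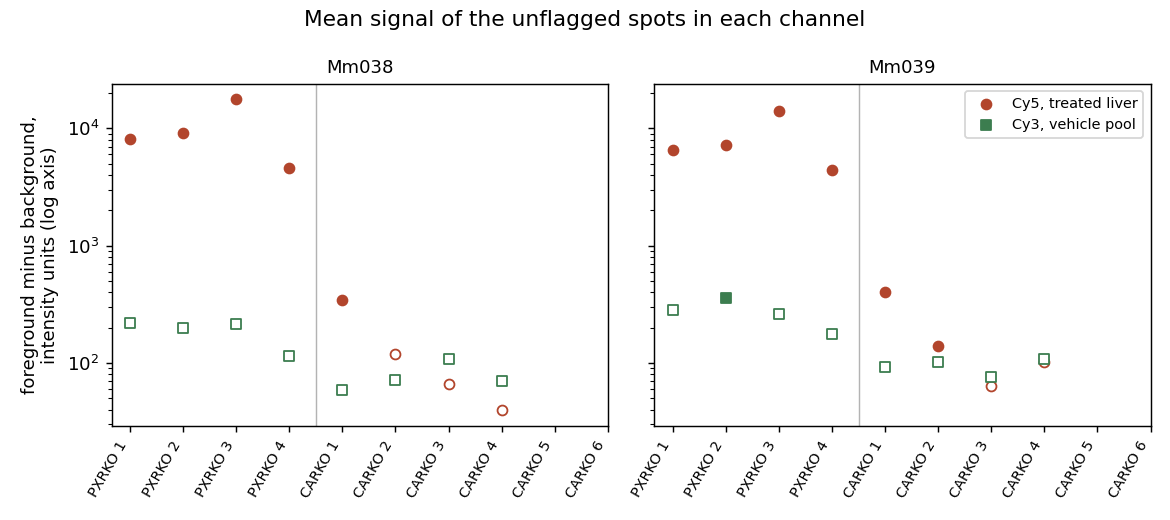
Foreground minus background of Mm038 and Mm039 on a log axis (y) on each PXRKO and CARKO array (x), for the treated liver (red circles, Cy5) and the vehicle pool (green squares, Cy3), averaged over unflagged spots; filled symbols are well above background, open ones are not, and CARKO 5 and 6 have no value. The Cy5 signal of Mm038 is 4595 to 17740 in PXRKO and 39.3 to 343 in CARKO, while the Cy3 signals of both probes stay at or below 359 units in both genotypes.

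Another 4 probes, Mm052, Mm051, Mm050 and Mm016, were higher in PXRKO than in CARKO and were well above background in both channels on all 10 arrays. The treated channel of Mm052 was saturated on 2 PXRKO arrays. All 4 rose in PXRKO livers (limma adjusted p from 9.0e-04 to 0.046), and none passed the threshold in CARKO (limma adjusted p from 0.13 to 0.76).

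Mm052 had log2 ratios of 1.56, 0.72, 0.40 and 1.23 on PXRKO 1 to 4, against a lowest value of −2.14, a median of −0.48 and a highest value of −0.17 on the 6 CARKO arrays. All PXRKO values were above 0 and all CARKO values below it, and the groups did not overlap. The means were 0.98 ± 0.52 in PXRKO (n = 4) and −0.80 ± 0.77 in CARKO (n = 6), a difference of 1.78 ± 0.43 (SE, 95% interval 0.88 to 2.68, limma adjusted p = 0.011). The exact two-sided permutation p was 0.0048, the smallest that 210 assignments allow. Its Cy5 spots were saturated on PXRKO 1 and 3, where the signal reached 65474 and 65410 units. The ratios on these 2 arrays are therefore capped, and the size of the difference is no measured fold. On PXRKO 4 the spots of Mm052 disagreed, with an SD of 0.90 against 0.06 to 0.13 on the other PXRKO arrays. The lowest CARKO value was that of CARKO 5, without which the difference was 1.51 (limma adjusted p = 0.017). Without PXRKO 1 it was 1.58 and no longer passed (limma adjusted p = 0.057).

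Mm051 had log2 ratios of 1.27, 0.05, 0.96 and 1.67 on PXRKO 1 to 4, against a lowest value of −1.60, a median of −0.09 and a highest value of 0.14 on CARKO arrays. PXRKO 2 lay below the highest CARKO array, so the groups overlapped by this array. The means were 0.99 ± 0.69 in PXRKO and −0.33 ± 0.64 in CARKO, a difference of 1.31 ± 0.33 (SE, 95% interval 0.61 to 2.01, limma adjusted p = 0.015, exact permutation p = 0.0095). Without PXRKO 2, its lowest PXRKO array, the difference was 1.63 (limma adjusted p = 0.0028), and without CARKO 5, its lowest CARKO array, it was 1.06 (limma adjusted p = 0.017). Without PXRKO 1 or PXRKO 4 it was 1.22 and 1.09 and did not pass (limma adjusted p = 0.058 and 0.085).

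Mm050 had log2 ratios of 1.19, 0.61, 1.01 and 1.70 on PXRKO 1 to 4, against a lowest value of −0.79, a median of −0.24 and a highest value of 0.64 on CARKO arrays. CARKO 5, the highest CARKO array, lay just above PXRKO 2, the lowest PXRKO array, and the other arrays did not overlap. The means were 1.13 ± 0.45 in PXRKO and −0.15 ± 0.47 in CARKO, a difference of 1.28 ± 0.29 (SE, 95% interval 0.68 to 1.88, limma adjusted p = 0.0076, exact permutation p = 0.0095). In Cy5 the probe read 21908, 15105, 39073 and 16703 units in PXRKO and 1836 to 7313 in CARKO. In Cy3 it read 4029 to 9148 units in PXRKO and 2852 to 7429 in CARKO. In these signals, which are not normalized between arrays, the treated livers of the genotypes did not overlap, while the pools did. Leaving out any 1 of the 10 arrays kept Mm050 past the threshold, with differences of 1.09 to 1.45.

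Mm016 had log2 ratios of 1.67, 1.43, 1.06 and 0.56 on PXRKO 1 to 4, against a lowest value of −0.14, a median of −0.02 and a highest value of 0.87 on CARKO arrays. The highest CARKO value was again that of CARKO 5, above PXRKO 4, and the other 5 CARKO arrays lay between −0.14 and 0.15. The means were 1.18 ± 0.48 in PXRKO and 0.12 ± 0.38 in CARKO, a difference of 1.06 ± 0.28 (SE, 95% interval 0.47 to 1.65, limma adjusted p = 0.018, exact permutation p = 0.0095). Without CARKO 5 the difference was 1.21 (limma adjusted p = 0.0055). Without PXRKO 1 it was 0.90 and did not pass (limma adjusted p = 0.098).

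In the other genotypes these 4 probes had the following levels, which were not tested here against PXRKO or CARKO. The CARPXRKO means were −0.75 ± 0.29 for Mm052, −0.37 ± 0.02 for Mm051, −0.14 ± 0.05 for Mm050 and −0.19 ± 0.56 for Mm016 (n = 4). The WT means were 1.76 ± 0.93 for Mm052, 1.60 ± 0.54 for Mm051, 1.16 ± 0.62 for Mm050 and 0.84 ± 0.47 for Mm016 (n = 6). In Cy5, Mm052 read 65423 and 65459 units on WT 5 and WT 6. These readings match those of its saturated PXRKO arrays, so its WT mean may be capped as well. All 4 CARPXRKO means lay below 0, and all 4 WT means above it.

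**Figure D4:**
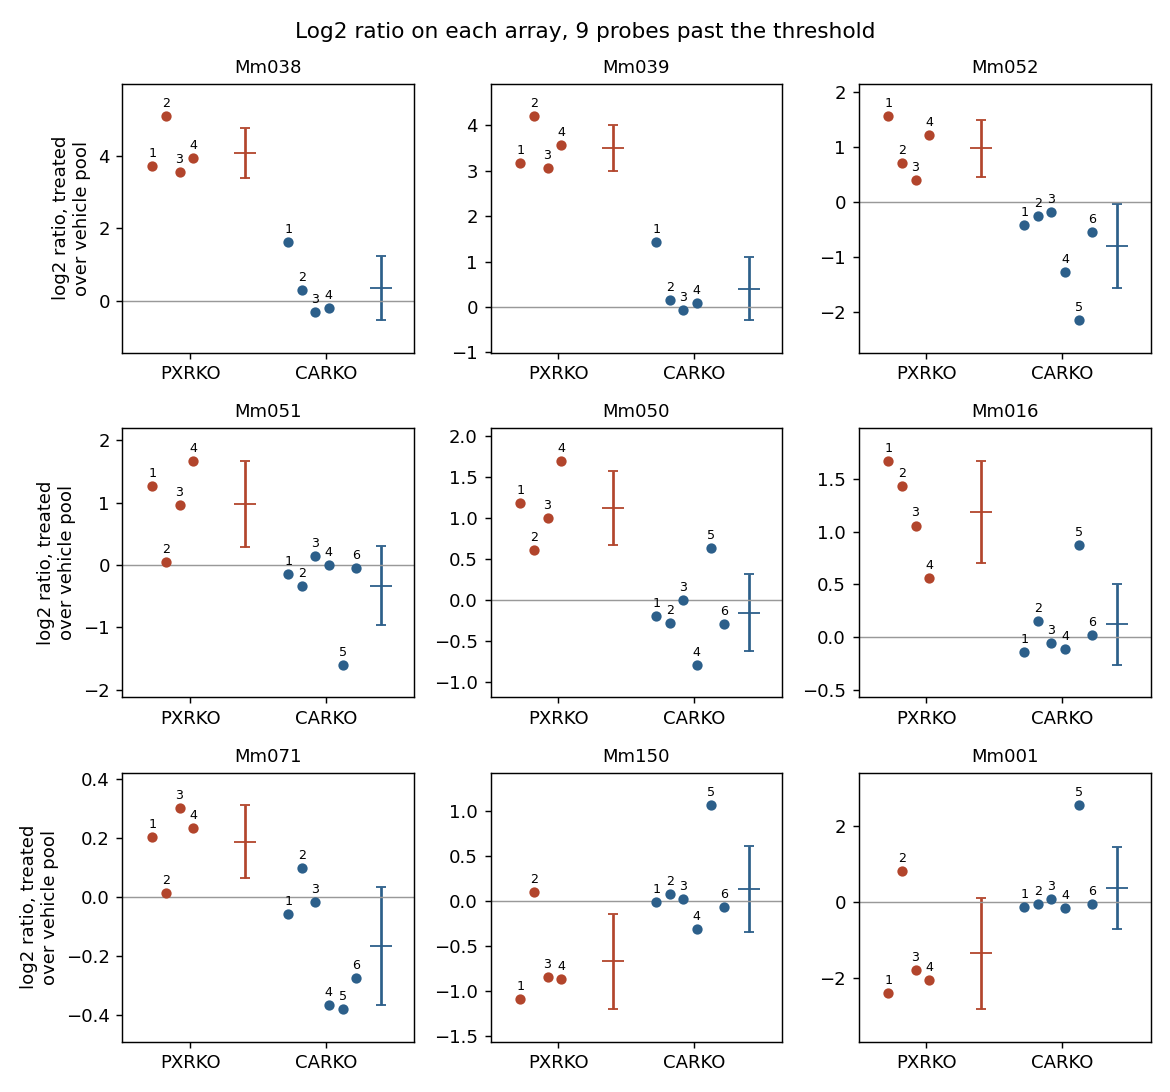
Log2 ratio of treated liver over vehicle pool (y axis) on each PXRKO array (red) and CARKO array (blue) for the 9 probes whose difference passed the threshold; numbers give the replicate, and bars the mean ± SD. In Mm038, Mm039 and Mm052 the groups do not overlap, and CARKO 5 lies at an edge of its group in Mm052, Mm051, Mm050, Mm016, Mm071, Mm150 and Mm001.

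The last of the 7 higher probes, Mm071, had log2 ratios of 0.20, 0.01, 0.30 and 0.23 on PXRKO 1 to 4, against a lowest value of −0.38, a median of −0.17 and a highest value of 0.097 on CARKO arrays. The groups overlapped at PXRKO 2, which lay below CARKO 2. The means were 0.19 ± 0.12 in PXRKO and −0.17 ± 0.20 in CARKO, a difference of 0.36 ± 0.11 (SE, 95% interval 0.12 to 0.59, limma adjusted p = 0.043, exact permutation p = 0.024). In PXRKO its Cy5 signal was well above background on 2 of 4 arrays and its Cy3 signal on 0 of 4, so its PXRKO ratio is not measured. Neither response passed the threshold by itself (limma adjusted p = 0.12 in PXRKO and 0.21 in CARKO). With median centring the difference was 0.06 (limma adjusted p = 0.75), and leaving out PXRKO 1, 3 or 4 or CARKO 4, 5 or 6 also ended the call, with limma adjusted p of 0.070 to 0.13.

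Both probes that were lower in PXRKO than in CARKO, Mm001 and Mm150, fell on average in PXRKO livers against their pool (limma adjusted p = 0.022 and 0.016). PXRKO 2 lay above 0 for both. These p-values rest on a spread shared by all genotypes, and for Mm001 the SD was 1.46 in PXRKO but 0.085 in WT. Mm001 had log2 ratios of −2.37, 0.82, −1.79 and −2.03 on PXRKO 1 to 4, against a lowest value of −0.17, a median of −0.06 and a highest value of 2.54 on CARKO arrays. PXRKO 1, 3 and 4 lay far below every CARKO array, PXRKO 2 lay above 5 of the 6, and CARKO 5 stood alone at 2.54 with the other CARKO arrays between −0.17 and 0.075. The means were −1.34 ± 1.46 in PXRKO and 0.36 ± 1.07 in CARKO. The difference was −1.71 ± 0.52 (SE, 95% interval −2.80 to −0.62, limma adjusted p = 0.040), and the exact permutation p was 0.076. In Cy5 the probe read 785, 6386, 2527 and 649 units in PXRKO, against 1203, 1515, 561, 1165, 2047 and 426 on CARKO 1 to 6. In Cy3 the PXRKO pool read 2236, 3672, 1939 and 2103 units on the same arrays, and the CARKO pool 510 to 1301. The Cy3 readings of the PXRKO pool thus lay above all those of the CARKO pool. Without PXRKO 2 the difference was −2.43 (limma adjusted p = 0.0012), without CARKO 5 it was −1.27 (limma adjusted p = 0.061), and without both it was −1.99 (limma adjusted p = 6.06e-10). The call was also lost with only the 10 arrays fitted (limma adjusted p = 0.14), and with scale normalization or calibration centring, at −1.19 under each (limma adjusted p = 0.063 and 0.21). Without PXRKO 1, 3 or 4 it was −1.36, −1.56 and −1.48 and did not pass (limma adjusted p = 0.16, 0.13 and 0.11).

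Mm150 had log2 ratios of −1.09, 0.10, −0.85 and −0.87 on PXRKO 1 to 4, against a lowest value of −0.32, a median of −2.4e-04 and a highest value of 1.06 on CARKO arrays. The arrays fell in the same way as for Mm001, with PXRKO 2 inside the CARKO range and CARKO 5 alone at the top. The means were −0.68 ± 0.53 in PXRKO and 0.12 ± 0.48 in CARKO. The difference was −0.80 ± 0.24 (SE, 95% interval −1.30 to −0.30, limma adjusted p = 0.040, exact permutation p = 0.048). Without PXRKO 2 it was −1.06 (limma adjusted p = 0.0028), without CARKO 5 it was −0.61 (limma adjusted p = 0.061), and without both it was −0.87 (limma adjusted p = 6.4e-04). Without PXRKO 1, 3 or 4 it did not pass (limma adjusted p of 0.096 to 0.15), nor with median centring, at −0.53 (limma adjusted p = 0.18). In the other genotypes Mm001 had means of 0.26 ± 0.20 in CARPXRKO and −0.19 ± 0.09 in WT, and Mm150 had means of 0.35 ± 0.08 in CARPXRKO and −0.22 ± 0.31 in WT (n = 4 and 6). All 4 of these means lay nearer to 0 than the PXRKO mean of their probe, and they were not tested here.

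Slide position, read from the spot coordinates, separated the odd from the even replicate numbers in both genotypes. With position as a block 10 probes passed, among them all 9 named above. The odd arrays alone gave 0 probes past the threshold (23 at an unadjusted limma p under 0.05), and the even arrays alone gave 3. For Mm038 the difference was 2.98 over odd and 4.48 over even arrays, for Mm052 1.89 and 1.66, and for Mm050 0.95 and 1.61. For Mm001 it was −2.90 over odd and −0.51 over even arrays, and for Mm150 −1.32 and −0.28. All 9 differences kept their direction within both positions.

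The number of probes that differed depended on which array was left out. Without PXRKO 2 it was 23, of which 13 were higher and 10 lower, and the 9 probes were among them. Without PXRKO 1 it was 4, without PXRKO 3 it was 6 and without PXRKO 4 it was 5. Leaving out a CARKO array gave 6 to 16, the lowest without CARKO 5 (6 higher and 0 lower) and the highest without CARKO 2. Without CARKO 3, the array with the conflicting label text, it was 10, with all 9 probes among them. Without both PXRKO 2 and CARKO 5, a choice made after the arrays had been seen, it was 21, with 12 higher and 9 lower and all 9 probes among them.

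**Figure D5:**
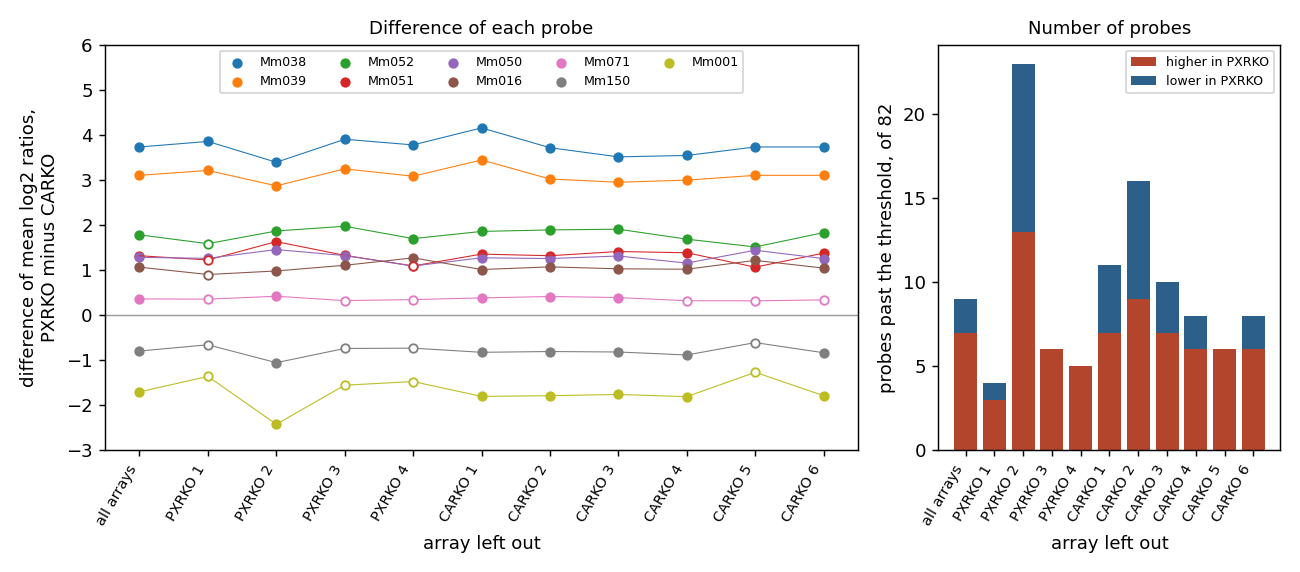
Left, difference of mean log2 ratios (PXRKO minus CARKO, y axis) of the 9 probes with all arrays and with each array left out (x axis); filled points passed an adjusted p of 0.05 and open ones did not. Right, the number of probes past the threshold, higher in PXRKO in red and lower in blue, which runs from 4 without PXRKO 1 to 23 without PXRKO 2.

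Apart from the size of the difference, overlap of the arrays was counted. For 6 of 82 probes (7.32%) no PXRKO array overlapped with a CARKO array, with PXRKO above CARKO for 5 and below for 1. Mm038, Mm039 and Mm052 were 3 of these. The other 3 did not pass the test. Mm008 had a difference of 0.65 ± 0.21 (SE, limma adjusted p = 0.054), Mm083 one of 0.20 ± 0.13 over 3 PXRKO and 5 CARKO arrays (limma adjusted p = 0.29), and Mm020 one of −0.20 ± 0.089 (limma adjusted p = 0.13).

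Of the probes that responded in PXRKO, 7 did not differ from CARKO past the threshold. The 4 rises among them had differences of 0.31 to 0.69 (limma adjusted p from 0.063 to 0.16), and the 3 falls had −0.48 to −0.32 (limma adjusted p from 0.054 to 0.097). For all 7 the difference had the sign of the PXRKO response. The difference contains the PXRKO mean by which these probes were chosen, so this sign is no separate result.

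The 4 probes that responded in CARKO also did not differ past the threshold. Mm054 had log2 ratios of 0.30, −0.09, 0.46 and 0.06 on PXRKO 1 to 4, against a lowest value of −0.04, a median of 0.61 and a highest value of 1.25 on CARKO arrays. The groups overlapped broadly, and CARKO 5 was again the highest. Mm054 rose in CARKO by 0.59 ± 0.44 (n = 6, limma adjusted p = 0.0085) and had 0.18 ± 0.24 in PXRKO (n = 4, limma adjusted p = 0.39). The difference was −0.41 ± 0.19 (SE, 95% interval −0.81 to −0.0078, limma adjusted p = 0.14), and without CARKO 1 it was −0.54 and passed (limma adjusted p = 0.047). Mm092 rose in CARKO by 0.53 ± 0.22 (limma adjusted p = 0.016), above 0 on 6 of 6 arrays, and its PXRKO values of 0.49, 0.26, 0.22 and 0.72 lay in much the same range, with a difference of −0.11 (95% interval −0.51 to 0.30, limma adjusted p = 0.73). In PXRKO its pool signal was well above background on 0 of 4 arrays, so its PXRKO ratio is not measured, and that response did not pass (limma adjusted p = 0.055). Mm062 fell in CARKO by a mean log2 ratio of −0.35 ± 0.29 (limma adjusted p = 0.026), below 0 on 6 of 6 arrays. Its PXRKO values were −0.41, −0.06, −0.32 and −0.26, all below 0 as well, with a difference of 0.087 (95% interval −0.22 to 0.39, limma adjusted p = 0.71). The last CARKO responder, Mm149, had a difference of −0.58 ± 0.20 (SE, limma adjusted p = 0.056). Without CARKO 4 no probe passed in CARKO, and 6 had an unadjusted limma p under 0.05. The fall of Mm062 was also lost without CARKO 3, without CARKO 6 and with median centring, each of which left 2 CARKO responses, both rises.

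Of the 73 probes that did not pass, 36 were well above background in both channels on all 10 arrays. For these the median half-width of the 95% interval was 0.34 on the log2 scale, and for 33 the whole interval lay within 1 log2 unit of 0. No such bound is drawn for the others, whose ratios rest in part on signals near background. A p that missed the threshold does not show that the responses were alike. The 6 probes so measured whose differences passed were Mm052, Mm051, Mm050, Mm016, Mm150 and Mm001, with the saturation of Mm052 given above.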

How the data were processed

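Sample titles gave the groups and replicate numbers. Per the file headers, the deposited scanner output has median foreground and background intensity of each spot in red (Cy5) and green (Cy3), the percent of saturated pixels, and a flag score that is negative for flagged spots. These intensities are not normalized, with image software and flagging rule not given in the sources used here. A value table with the authors' log2 ratios was used as an alternative. Set against the deposited intensities its columns had correlations of 0.92 to 0.98 in PXRKO and 0.80 to 0.96 in CARKO. It was read as treated over pool on a log2 scale, and its centring is unknown. Its column medians were 0.23, −0.27, 0.01 and 0.27 on PXRKO 1 to 4 and −0.02, −0.004, −0.05, −0.28, −0.52 and 0.04 on CARKO 1 to 6.

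In limma 3.58.1 (R 4.3.3), intensities were background-corrected with normexp (offset 50) and log2 ratios normalized by global loess, with 218 control and other spots and the flagged spots at weight 0. Flagged spots were dropped, saturated spots kept and the 3 spots of a probe averaged. Well above background means a foreground over 2 background SDs above the local background, on most spots of a probe, with flagged spots counted as failing. All 20 arrays entered 1 fit with a mean per genotype (lmFit and eBayes, 3.12 prior and up to 16 residual degrees of freedom), with Benjamini-Hochberg adjustment over the 82 probes and a threshold of 0.05. The 15.5-fold value of Mm038 came from single-channel log2 values (loess, then Aquantile). It is the mean Cy5 less the mean Cy3. Each array's Cy3 was raised, if lower, to that of its dimmest probe well above background. Exact permutation tests assigned the arrays to genotypes. Precision is limited by the number of arrays. The script was tested on simulated data.

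The probes named by rule were the first 2 higher and first 2 lower past the threshold in the difference and in each response (1 fell in CARKO). The other 5 higher probes, the 3 without overlap and Mm149 were named after their values had been seen. The comparison and the rule were chosen with earlier results of these data known. Alternatives covered background, normalization, flags, filters, spot summary, arrays in the fit, moderation, value table, replicate and position blocks, and left-out arrays. Same-numbered arrays of both genotypes had correlations of their deviations of 0.18, −0.33, 0.18 and 0.21, so the numbers were not taken to pair them.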

Additional observations from a re-analysis of the deposited data

Results flagged for a closer look

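The 24 combinations of a named probe and a genotype were examined for 1 array far from the others. Chance gives about 1 in 20 for a single combination. The combinations share arrays and the probes were named by their values, so this rate does not test the count. Single arrays stood apart in 5 of the 24 combinations, all within CARKO. For Mm039 this was CARKO 1, at a log2 ratio of 1.43 with the other 3 CARKO values between −0.06 and 0.16. The other 4 were all on CARKO 5, with Mm001 at 2.54 (others −0.17 to 0.075), Mm150 at 1.06 (others −0.32 to 0.068), Mm016 at 0.87 (others −0.14 to 0.15) and Mm051 at −1.60 (others −0.33 to 0.14).

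The responses of PXRKO and CARKO livers differed by the test of the difference itself for 9 probes. The differences were 3.73 for Mm038, 3.10 for Mm039, 1.78 for Mm052, 1.31 for Mm051, 1.28 for Mm050, 1.06 for Mm016, 0.36 for Mm071, −0.80 for Mm150 and −1.71 for Mm001.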

How the results depend on the processing

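There were 4 PXRKO arrays and 1 pool per genotype, and 50 to 69 probes lay above background in the PXRKO pool channel, whose effect on precision was not tested. Against 9 differences, 14 passed with median centring, 14 with print-tip loess, 4 with scale normalization, 5 with calibration centring, 0 of 68 in the authors' table (6 at an unadjusted limma p under 0.05), 0 on odd (23 unadjusted) and 3 on even slide positions, 21 without PXRKO 2 and CARKO 5 and 28 with limma's array weights, which gave PXRKO 2 and CARKO 5 weights of 0.26 and 0.23. Leaving out single arrays gave 4 to 23. Mm038, Mm039 and Mm052 were not among the 68 probes tested in the authors' table, so their calls could not be repeated there. Against 15 PXRKO responses, 3 passed in the authors' table (10 unadjusted), 3 on even positions, 34 without PXRKO 2 and CARKO 5 and 33 with array weights, and single arrays left out gave 6 to 27. Against 4 CARKO responses, 2 passed with median centring, 10 with scale normalization, 0 with calibration centring (12 unadjusted), 1 with the 10 arrays alone, 0 in the authors' table (2 unadjusted), 0 on odd positions (4 unadjusted), 1 on even positions and 17 with array weights, and single arrays left out gave 0 to 5. Single positions and left-out arrays have fewer samples, and the cause of the other moves was not tested.

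Mm092 turned to 0.0080 with background subtraction, 0.0032 without PXRKO 2 and CARKO 5 and 0.033 with array weights, and Mm062 to −0.11 on odd positions and −0.0019 without CARKO 4 (−0.0019 to 0.15 over single arrays left out). None of the 9 differences changed sign under the alternatives run. Their calls were lost in 2 of 29 alternatives for Mm038 and Mm039, 2 of 31 for Mm052, 3 of 32 for Mm050, 5 for Mm016, 6 for Mm051, 12 for Mm150, 14 for Mm001 and 20 of 31 for Mm071. The alternatives counted include the exact permutation test, taken at its unadjusted p. Mm038 and Mm039 have no value on CARKO 5 and 6, so leaving out either array could not move their differences. With only the 10 arrays fitted, 6 passed, all higher and 5 of them among the 9, and Mm051, Mm071, Mm150 and Mm001 were lost (limma adjusted p = 0.057, 0.11, 0.11 and 0.14). With the replicate block 8 passed, 7 of them among the 9, and Mm071 and Mm001 were lost (limma adjusted p = 0.095 and 0.090). No PXRKO array correlated best with the CARKO array of its own number.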
